A study of Sus scrofa with 33 samples.

Results

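The whole course of the control arm was the change in right ventricular gene expression from the baseline biopsy to the last biopsy of pigs whose pulmonary artery stayed banded throughout. Its members were chosen by label: the 5 baseline arrays and the 5 last arrays of the control pigs, 10 of the 33 arrays of the series, paired by pig. Pulmonary banding is a constriction of the pulmonary artery, used here to bring on right ventricular failure. In all 11 pigs (Sus scrofa) the free wall of the right ventricle was biopsied at baseline, after 120 min of banding, and once more 60 min later. The 5 control pigs had nothing added in those last 60 min, so that their last biopsy came after 180 min of banding. The other 6 pigs were randomised to a modified Glenn shunt, which leads blood of the superior vena cava into the pulmonary artery past the right ventricle. The labels used here give no strain, sex or age of the animals. No pig without banding was biopsied over the same hours, so each change includes everything that passed between the biopsies, which cannot be told apart from banding.

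The right ventricle normally pumps against a low pressure, and a sudden rise of that pressure stretches its thin wall. Stretched heart muscle and its blood vessels switch on immediate early genes, which encode short-lived transcription factors, and then genes for natriuretic peptides, cytokines, chaperones and matrix proteins. The ventricle lives mainly on fatty acids burnt in mitochondria, and its contractile protein transcripts are among its most abundant and turn over slowly.

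Expression was read on 1 Affymetrix porcine array per biopsy, and all values are log2 signals made with RMA, which corrects background, normalises the arrays to one another and summarises the probes of each set. A difference of 1 is thus a doubling of signal. Array medians lay between 6.10 and 6.18 over the whole series, and the number of arrays limits the precision. The 3' minus 5' signal of GAPDH, a sign of RNA breakdown, was 0.759 ± 0.262 at baseline and 0.823 ± 0.311 at the last biopsy (SD, n = 5 arrays each). That of actin was larger, at 2.14 ± 0.47 and 2.03 ± 0.44. The spiked-in BioB control gave 9.44 ± 0.41 and 9.38 ± 0.40, and the Dap control 9.27 ± 1.07 and 8.90 ± 0.53, in the same order. The shunt arrays fell into 2 sets: BioB ran from 8.05 to 8.57 and Dap from 2.77 to 3.32 in pigs 1 to 4, and from 5.97 to 6.26 and from 9.67 to 10.2 in pigs 5 and 6. BioB was below all control arrays in both sets, so array sets and arms of the study cannot be told apart. The tissue label was checked against 15 markers of ventricular cardiomyocytes: their mean level was 13.7 to 13.9 in the baseline arrays and 13.6 to 13.9 in the last arrays, and none of them passed the test described next. In tissue biopsies, fewer cells of a type and less RNA per cell cannot be told apart.

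Among genes with a symbol, those that rose most over 180 min of banding were the pattern recognition protein PTX3, the chemokine CCL2, the matricellular protein CYR61 and the stress-induced transcription factor ATF3. The falls were shallower. Among genes with a symbol that fell in all 5 pigs they were led by MAP10, TNFSF10, STOX1 and CIRBP, while RRAD fell by 1.27 in 4 of 5 pigs. In limma, with pig as a block and Benjamini-Hochberg adjustment over 23999 probe sets, 2110 passed at 0.05 (8.79%), 840 higher (3.50%) and 1270 lower (5.29%). Falls outnumbered rises among all calls but not among large ones: 442 of the probe sets called rose and 291 fell by at least 1.5-fold, 169 rose and 36 fell by at least 2-fold, and 31 rose and none fell by at least 4-fold. The median called rise was 0.598 and the median called fall -0.435. Of the 2110, 1995 moved in the same direction in all 5 pigs.

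A single probe set stood for each of the 6765 genes with a symbol. Of these genes 297 rose (4.39%) and 378 fell (5.59%), and the median change over all genes was -0.02. The gene lists set against these shares below were chosen with earlier results of these data known, so their counts are descriptive. The lowest of the 5 last values stood above the highest of the 5 baseline values in 174 genes (2.57%), and all 5 last values lay below all 5 baseline values in 240 (3.55%). Most probe sets that passed, 1260 of them, had no symbol here, and 824 of those were lower. The largest change without a symbol was a rise of 4.05 ± 0.44 (SE, n = 5 pigs), and the deepest of them -1.51 ± 0.14, each in 5 of 5 pigs with limma adjusted p-values of 6.87e-06 and 1.96e-06. Without pig 2 the count fell from 2110 to 849 probe sets, and without pig 1 to 1314. Pig 2 also had the widest spread of changes over all probe sets, with an SD of 0.416 against 0.274 to 0.341 in the others.

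**Figure D1:**
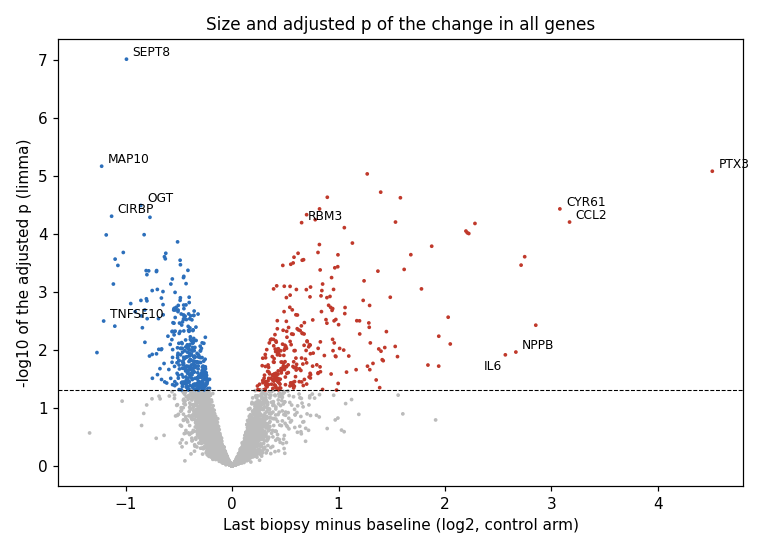
Change from baseline to the last biopsy (log2, x axis) against -log10 of the limma adjusted p (y axis) for 6765 genes of the 5 control pigs; red points rose, blue points fell, and the dashed line marks an adjusted p of 0.05. The 297 rises reach up to 4.51 (PTX3), while the 378 falls are shallower and hold the smallest adjusted p, that of SEPT8.

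Inflammatory genes held the largest rise of all. PTX3, an acute-phase pattern recognition protein made by vessel wall and immune cells, read 5.18, 5.98, 4.38, 4.54 and 6.56 in pigs 1 to 5 at baseline and 9.74, 11.38, 7.72, 9.89 and 10.47 at the last biopsy. Every last value lay above every baseline value, with pig 3 lowest at both times. The change was 4.51 ± 0.50 (SE of the limma fit, n = 5 pigs), or 22.8-fold, with a limma adjusted p of 8.38e-06. CCL2, the chemokine that draws monocytes, went from 8.46, 8.34, 7.65, 7.29 and 8.80 to 11.11, 12.87, 10.42, 10.70 and 11.29. Its groups were also apart, and it rose 9.01-fold (3.17 ± 0.43, adjusted p = 6.31e-05). The cytokine gene IL6 stood between 4.06 and 5.04 at baseline and at 6.74, 9.47, 5.62, 5.81 and 7.01 at the end. The groups did not overlap, but pig 2 stood far above the rest, and the rise of 5.93-fold (2.57 ± 0.64, adjusted p = 0.0123) did not pass without that pig (adjusted p = 0.133).

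The median change over 28 measured cytokine, chemokine and NF-kB target genes was 0.55, against -0.02 over all genes. Of the 28, 9 rose (32.1%, against 4.39% of all genes) and none fell. Beside those 3 they included the adhesion molecule ICAM1 (1.38 ± 0.33), the interleukin-1 receptor IL1R1 (1.29 ± 0.28), the interferon regulatory factor IRF1 (1.08 ± 0.30) and the toll-like receptors TLR2 (0.83 ± 0.19) and TLR4 (0.65 ± 0.14). The other 19 did not pass. Without pig 2 the list kept 4 calls, and those of ICAM1 (adjusted p = 0.0629), IRF1 (0.163) and TLR2 (0.0655) ended. IRF1 also missed the threshold without pig 3 (0.0904) or pig 4 (0.0658). It was the 1 call among 24 interferon-induced genes (4.17%, against 4.39% of all genes higher), whose median change was -0.02. RSAD2, an antiviral protein, stood at -0.46 ± 0.19 and the guanylate-binding protein GBP1 at 0.56 ± 0.20, with adjusted p-values of 0.162 and 0.0904.

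Along the pathway from IL-6 to its transcription factor STAT3, 6 of 14 genes rose and none fell. That was 42.9% higher, against 4.39% of all genes, at a median change of 0.30. STAT3 itself read 8.47 to 8.73 in the 5 baseline arrays and 9.67, 10.08, 8.76, 9.10 and 9.30 in the last ones, a narrow gap in pig 3 and a wide one in pig 2. It rose by 0.76 ± 0.16 (adjusted p = 0.00308). The acute-phase transcription factors CEBPD (0.99 ± 0.16) and CEBPB (0.81 ± 0.19) and the protease inhibitor TIMP1 (1.55 ± 0.39) rose with it. Without pig 2 this list kept 2 calls, and CEBPB (adjusted p = 0.113), TIMP1 (0.124) and IL6 were among those that no longer passed.

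**Figure D2:**
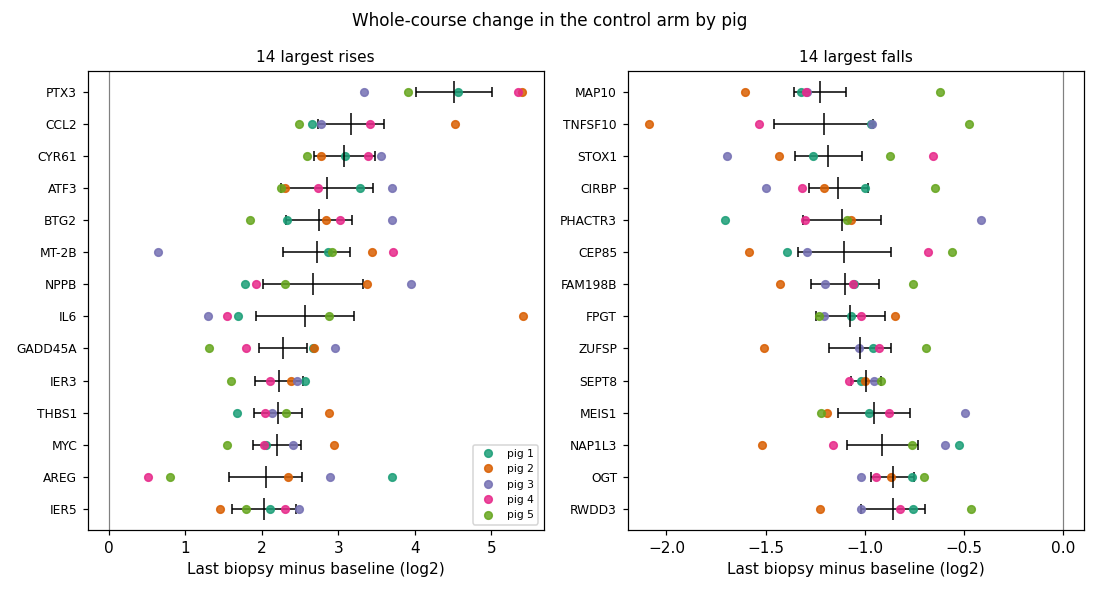
Change from baseline to the last biopsy in each of the 5 control pigs (points, log2) for the 14 largest rises (left) and the 14 largest falls (right) that passed and went the same way in all pigs; vertical bars with whiskers give the fitted mean and its SE. The changes of SEPT8 lie close together and those of IL6, AREG and MT-2B far apart, with pig 2 far above the others for IL6 and pig 3 far below them for MT-2B.

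Immediate early genes, which need no new protein to be transcribed, were the list with the largest share of rises among those examined. Of 19 measured 12 rose (63.2%, against 4.39% of all genes) and none fell, at a median change of 1.40. Since the lists were chosen with earlier results of these data known, this order is a description only. ATF3 went from 8.43, 9.17, 8.97, 7.97 and 7.14 to 11.71, 11.47, 12.67, 10.70 and 9.40. The last values were all above the baseline values, pig 5 being lowest both times. The rise was 7.23-fold (2.85 ± 0.61, adjusted p = 0.00379). MYC, a growth-promoting transcription factor, read 7.98, 8.13, 8.37, 7.86 and 7.62 before and 10.04, 11.08, 10.78, 9.89 and 9.16 after, again without overlap. It rose 4.59-fold (2.20 ± 0.31, adjusted p = 9.02e-05). BTG2, which slows cell division, rose 6.72-fold (2.75 ± 0.43), IER3, a regulator of survival, 4.67-fold (2.22 ± 0.32), and IER5 4.08-fold (2.03 ± 0.41).

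FOS, the partner of JUN in the AP-1 factor, did not pass. Its baseline values were 10.25, 9.73, 10.45, 8.57 and 9.73 and its last values 10.20, 12.66, 13.26, 11.10 and 9.54. It was higher in pigs 2, 3 and 4 and not in pigs 1 and 5, so that the groups overlapped. The change was 1.60 with a 95% interval from 0.30 to 2.91 (adjusted p = 0.128). The related AP-1 gene FOSL2 rose by 1.17 ± 0.24, although its groups overlapped slightly. Without pig 2, 6 immediate early genes passed, and without any other single pig 8 to 12 did.

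Growth arrest, p53 target and apoptosis genes rose in 10 of 18 cases and fell in 1 (SESN1), with a median of 0.41. That was 55.6% higher and 5.56% lower, against 4.39% and 5.59% of all genes. GADD45A, a stress sensor that halts the cell cycle, stood between 8.93 and 9.38 at baseline and at 12.04, 12.06, 11.88, 10.90 and 10.45 at the end. Each last value was above each baseline value, with pigs 4 and 5 lower than the rest. It rose 4.86-fold (2.28 ± 0.31, adjusted p = 6.67e-05). Its relatives GADD45B (1.20 ± 0.27) and GADD45G (0.96 ± 0.20) rose as well, as did TNFRSF12A, the receptor of the cytokine TWEAK (1.54 ± 0.21). The fall of SESN1, a stress-induced regulator of growth signalling, was 0.48 ± 0.15 (adjusted p = 0.0495) and was lost without any 1 of the pigs; the gene was named after its value was seen. Without pig 2 the rises were 4, and GADD45B had an adjusted p of 0.0692.

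Of 6 ligands of the EGF receptor and feedback genes of its ERK pathway 3 rose (50%, against 4.39% of all genes). The ligand gene AREG read 3.47 to 3.87 in all baseline arrays and 7.22, 6.22, 6.74, 4.10 and 4.28 at the last biopsy. Pigs 1 to 3 were high and pigs 4 and 5 barely above baseline, and the rise of 4.14-fold (2.05 ± 0.48, adjusted p = 0.0080) did not pass without pig 1 (0.072) or pig 2 (0.0514). The ligand HBEGF rose by 0.93 ± 0.26, which failed without pig 1 (0.105), pig 2 (0.149) or pig 3 (0.108). The ERK phosphatase DUSP6 was at 0.47 ± 0.16 and the ligand TGFA at 0.12 ± 0.10, neither past the threshold (adjusted p = 0.0665 and 0.518).

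The machinery that builds ribosomes and starts translation rose in 10 of 26 cases and fell in none (median 0.35). Over all genes 4.39% rose, against 38.5% of this list. The initiation helicase EIF4A1 had baseline values of 9.95, 9.72, 9.57, 9.68 and 9.99 and last values of 10.96, 11.55, 10.68, 10.52 and 10.85, with no overlap and pig 2 highest. It rose by 1.13 ± 0.17 (2.19-fold, adjusted p = 0.000145). The nucleolar proteins DDX21 (0.97 ± 0.20), GNL3 (0.97 ± 0.16) and NOP56 (0.73 ± 0.17) and UTP15, of the processome for the small subunit (0.41 ± 0.09), rose too. None of the 26 stood in another of the lists. Pig 2 had a median change of 0.69 over the list against 0.22 to 0.41 in the others, and without it 3 members passed, those of NOP56 (adjusted p = 0.0867) and UTP15 (0.0627) no longer among them. Without pig 1, 6 passed.

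Genes that respond to wall stretch or mark the fetal and failing heart rose in 7 of 20 cases and fell in 1. These shares were 35% and 5%, against 4.39% and 5.59% of all genes. The list had a median of 0.39, and 14 of the 20 also stood in another list. CYR61, a secreted matricellular protein, went from 9.09, 10.17, 9.49, 8.52 and 8.85 to 12.17, 12.94, 13.05, 11.91 and 11.44. The groups were more than 1 log2 unit apart at their nearest, and the rise was 8.45-fold (3.08 ± 0.40, adjusted p = 3.74e-05). XIRP1, which binds actin at the contacts between heart muscle cells, rose 3.67-fold (1.88 ± 0.28), from 9.10 to 10.75 at baseline to 11.19 to 12.55 at the end. ANKRD1, a strain-responsive cofactor of the sarcomere, was bright from the start, at 13.32 to 13.70, and ended at 13.73 to 14.35. It rose by 0.57 ± 0.11 on that probe set and by 2.28 on its other one, both past the threshold. FHL1, a muscle protein with LIM domains, rose by 0.55 ± 0.09 and the growth factor of vessels VEGFA by 0.52 ± 0.12, both with overlapping groups. VEGFA had 4 probe sets with changes from -0.16 to 0.68, of which 2 passed. FHL2, a relative of FHL1 at the Z-disc, fell by 0.51 ± 0.12, a call that ended without pig 1 (adjusted p = 0.0566) or pig 2 (0.0938).

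The natriuretic peptide genes behaved unevenly between pigs. NPPB, for the peptide BNP, read 9.92, 8.60, 6.88, 7.10 and 7.16 at baseline and 11.70, 11.97, 10.83, 9.03 and 9.47 at the last biopsy. It was higher in each pig, although the high baseline of pig 1 overlapped the low last values of pigs 4 and 5. The rise was 6.35-fold (2.67 ± 0.65, adjusted p = 0.0110) and did not pass without pig 2 (0.073) or pig 3 (0.0702). NPPA, for the peptide ANP, went from 9.97, 10.03, 8.55, 9.91 and 5.97 to 10.23, 9.09, 8.66, 7.34 and 6.89, higher in 3 pigs and lower in 2. Its change of -0.44 had a 95% interval from -2.15 to 1.26 (adjusted p = 0.828), wide enough to hold large changes either way. The atrial myosin light chain MYL4 also moved by pig, from 8.99, 9.37, 8.52, 9.22 and 7.79 to 9.22, 7.73, 7.82, 7.47 and 8.09. At 120 min pig 5 was highest of the 5 for NPPB (11.60), NPPA (11.48) and MYL4 (10.15) alike. Of 6 atrial markers NR2F2, an atrial transcription factor, fell (-0.58 ± 0.14) and none rose, 16.7% lower against 5.59% of all genes. The mean level of the 6 was 6.93 to 7.86 at baseline and 6.92 to 7.94 at the end. The part of atrial transcripts in the natriuretic peptide values was not tested.

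Leukocyte adhesion and endothelial activation genes rose in 8 of 24 cases and fell in 2, TEK and CD34, at a median of 0.41. The shares were 33.3% higher and 8.33% lower, against 4.39% and 5.59% of all genes. PLAU, the protease urokinase, read 7.56 to 8.30 before and 9.36, 11.02, 9.17, 8.62 and 8.95 after, pig 2 being highest by far, and rose by 1.53 ± 0.36. F3, tissue factor, which starts clotting, rose by 1.29 ± 0.25 without overlap of its groups. The metalloprotease ADAMTS1 (0.96 ± 0.22) and the vasodilator peptide ADM (0.84 ± 0.17) rose in all pigs with some overlap. TEK, the angiopoietin receptor, fell by 0.37 ± 0.12 (adjusted p = 0.0441), and that call was lost without any 1 pig, at 0.0565 to 0.17. CD34, a surface protein of endothelial and progenitor cells, fell by 0.38 ± 0.11 (adjusted p = 0.0263), a call lost without pig 1, 2 or 4; it was named after its value was seen. Without pig 2 the rises were 3, PLAU having an adjusted p of 0.0954, and without pig 3 they were 5.

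Of 37 genes of the extracellular matrix 5 rose (13.5%, against 4.39% of all genes) and none fell, and the median change was 0.06. All 5 were matricellular proteins or regulators of proteolysis, and no collagen was among them. THBS1, thrombospondin 1, was nearly level at baseline (9.66, 9.78, 9.69, 9.67 and 9.76) and stood at 11.34, 12.65, 11.83, 11.71 and 12.08 at the end. This gap of over 1 log2 unit between the groups went with a rise of 4.63-fold (2.21 ± 0.31, adjusted p = 9.65e-05). Of its 5 probe sets 3 passed, and their changes ran from 0.26 to 2.25. COL3A1, a fibrillar collagen, was at 0.48 ± 0.16 (adjusted p = 0.0584, higher in 4 of 5 pigs). Without pig 2, 3 members of the list passed.

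Heat shock proteins and co-chaperones rose in 7 of 32 cases (21.9%, against 4.39% of all genes) and fell in none. Their median change was 0.20, and the size of the changes differed between pigs. HSPA6, the strictly inducible HSP70 protein, read 5.61, 5.82, 5.68, 4.83 and 5.22 at baseline and 8.86, 8.03, 8.67, 5.28 and 5.89 at the last biopsy. Pigs 1 to 3 were well above their baseline and pigs 4 and 5 were not far from it, so the groups overlapped. Its change of 1.91 had an interval from 0.23 to 3.60 and did not pass (adjusted p = 0.163). CRYAB, a small heat shock protein that protects desmin and titin, stood at 13.15 to 13.60 and then at 13.56 to 13.95, a rise of 0.49 ± 0.09 (adjusted p = 0.000808). Its dimmer probe set gave 2.59, and it passed too. DNAJB6 (0.56 ± 0.12), a co-chaperone at the Z-disc, and HSPA4 (0.53 ± 0.11), an exchange factor of HSP70, rose in 5 of 5 pigs on 1 of 4 and 1 of 3 probe sets, and the chaperone HSPB8 (0.87 ± 0.22) and its partner BAG3 (0.98 ± 0.31) rose in 5 of 5.

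The call of BAG3 was marginal. Its values went from 10.47, 10.31, 10.44, 10.23 and 10.21 to 11.81, 11.53, 11.78, 10.71 and 10.75, so the groups were apart, but the adjusted p was 0.0499 and lay between 0.065 and 0.188 when any 1 pig was left out. HSPB8 failed without pig 1 (0.0745), pig 2 (0.0656) or pig 3 (0.0546), and HSPB3, a small heat shock protein of muscle (0.40 ± 0.12), without pig 1 (0.127), pig 3 (0.121), pig 4 (0.075) or pig 5 (0.0582). The list kept 3 calls without pig 1 or pig 3 and 4 without pig 5. The 22 genes of the unfolded protein and integrated stress responses had a median change of 0.04. Of these, 4 rose (18.2%, against 4.39% of all genes) and none fell. They were PPP1R15A (0.70 ± 0.16) and PPP1R15B (0.43 ± 0.12), which restart translation by way of eIF2 alpha, the chaperone DNAJB9 (0.68 ± 0.20) and the transcription factor ATF4 (0.38 ± 0.12). Without pig 1 only the call of PPP1R15A remained, at adjusted p-values for the others of 0.0983, 0.114 and 0.0961, and without any other single pig 2 calls were made. PPP1R15B also missed the threshold without pig 2 (0.18) or pig 4 (0.0516), DNAJB9 without pig 3 (0.0958) or pig 5 (0.0754), and ATF4 without any 1 pig (up to 0.221).

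Of the metallothioneins, small proteins that bind zinc and copper, MT-2B and MT1A rose steeply. MT3 did not pass, at -0.02 ± 0.09 (limma adjusted p = 0.946). MT-2B went from 8.06, 7.25, 7.42, 6.19 and 6.90 to 10.93, 10.68, 8.06, 9.90 and 9.82. In pig 3 it rose by only 0.64, against 2.87 to 3.71 in the others, and that pig's last value was level with the highest baseline value. The rise was 6.57-fold (2.72 ± 0.44, adjusted p = 0.000349). MT1A rose by 1.84 ± 0.49 in 5 of 5 pigs, least in pig 3 again, and did not pass without pig 1 (0.116), pig 2 (0.094) or pig 4 (0.0622). The haem-degrading enzyme HMOX1 rose 2.50-fold (1.32 ± 0.35), which failed without pig 1 (0.0917) or pig 2 (0.115). GPX3, a secreted glutathione peroxidase, rose by 0.49 ± 0.12 in 4 of 5 pigs and failed without pig 3 (0.0587) or pig 5 (0.0504). These 4 were the calls among 27 antioxidant, metallothionein and NRF2 target genes (14.8%, against 4.39% of all genes higher), whose median change was -0.02. NQO1, a standard NRF2 target, was at -0.25 ± 0.09 (adjusted p = 0.0933).

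Genes known to be induced by glucocorticoids rose in 9 of 21 cases (42.9%, against 4.39% of all genes) and fell in none. Their median change was 0.31. The other 12 did not pass, and they went both ways. TSC22D3 stood at -0.44 ± 0.14 (limma adjusted p = 0.0544) and was higher in no pig. NFKBIA was at -0.29 ± 0.19 and SGK1 at 0.31 ± 0.15 (adjusted p = 0.416 and 0.255). FKBP5, a co-chaperone of the glucocorticoid receptor, read 10.07, 9.54, 9.83, 10.33 and 9.70 at baseline and 10.66, 10.39, 10.61, 10.97 and 10.95 at the end. Its groups were just apart, and the rise of 0.82 ± 0.11 (adjusted p = 3.74e-05) ranged from 0.59 in pig 1 to 1.25 in pig 5. KLF9, a zinc finger factor, rose by 0.50 ± 0.12 and missed the threshold without pig 5 (0.0517). Of these 21 genes 11 stood in another list too, and without pig 2 the list kept 4 calls. Circadian clock genes rose in 3 of 7 cases (42.9%, against 4.39% of all genes) at a median of 0.47. The rises were the repressor BHLHE40 (1.24 ± 0.21), the receptor RORA (0.65 ± 0.18) and the activator ARNTL (0.47 ± 0.13). BHLHE40 had a second probe set that stood at -0.02. RORA was lost without pig 1, 3, 4 or 5 (0.0913, 0.0916, 0.0554 and 0.0929), and ARNTL, higher in 4 of 5 pigs, without pig 1, 3 or 4 (0.0675, 0.162 and 0.0597). ARNTL also missed the threshold with pig as a random block (0.0532), in the control arrays alone (0.0707), in the 10 compared arrays alone (0.109) and without the pig block (0.184), and RORA with the random block (0.0672) and without a block (0.226). NFIL3, a repressor, was at 0.67 ± 0.29 and the output gene DBP at -0.22 ± 0.10, neither past the threshold (adjusted p = 0.175 and 0.179).

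**Figure D3:**
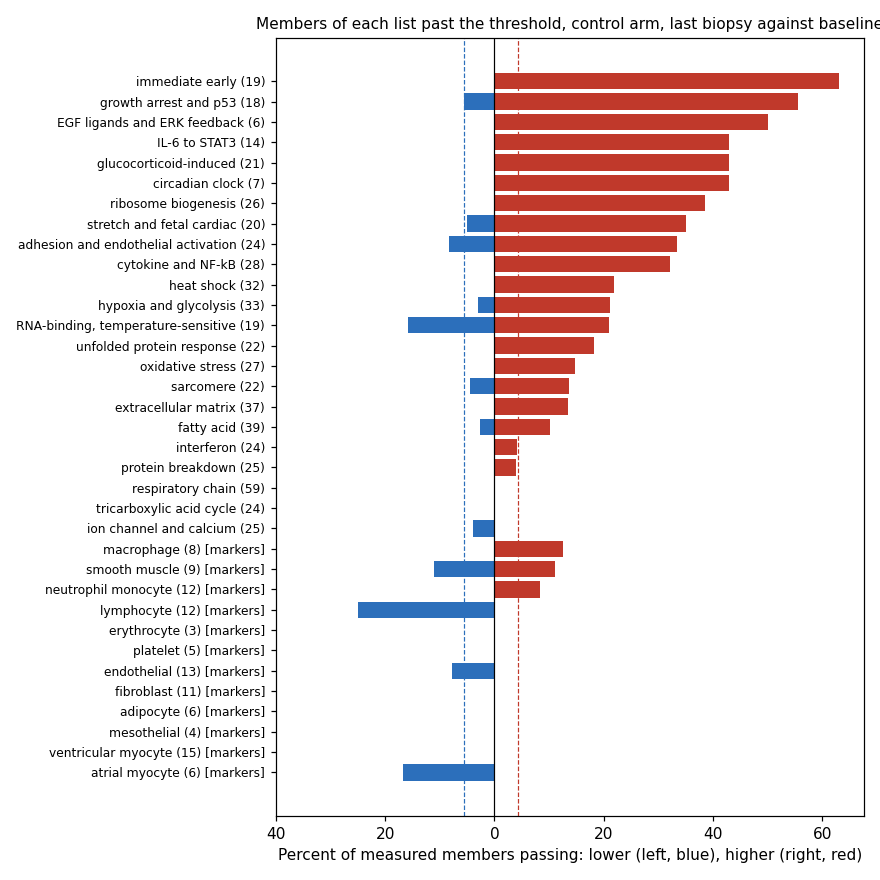
Percent of the measured members of each gene list and cell type marker list that rose (red, right) or fell (blue, left) from baseline to the last biopsy in the 5 control pigs, with the number measured in parentheses; dashed lines give the share over all genes, 4.39% higher and 5.59% lower. Immediate early genes have the longest red bar (12 of 19), and respiratory chain (59) and tricarboxylic acid cycle genes (24) have none in either colour. The gene lists were chosen with earlier results of these data known.

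Of 33 genes of the hypoxia response, glucose uptake and glycolysis 7 rose (21.2%, against 4.39% of all genes), at a median of 0.01. The collagen hydroxylase P4HA2 was the 1 that fell (-0.42 ± 0.13), 3.03% of the list against 5.59% of all genes. The glucose transporter SLC2A1 rose by 0.41 ± 0.10 and failed without pig 2 (0.0625), without which 3 calls were left in the list. The call of P4HA2, named after its value was seen (adjusted p = 0.0437), was lost without any 1 pig. Of 39 fatty acid genes 4 rose (10.3%) and 1 fell (2.56%, against 5.59% of all genes), at a median of -0.07 that was below 0 in each of the 5 pigs. The 4 rises were the lipase inhibitor ANGPTL4 (1.43 ± 0.34), the lipid droplet coat PLIN2 (1.35 ± 0.40) and the acyl-CoA synthetases ACSL4 (0.73 ± 0.21) and ACSL3 (0.41 ± 0.13, higher in 4 of 5 pigs). The other probe set of ANGPTL4 stood at 0.73 and did not pass. CPT1A, which brings fatty acids into mitochondria, went from 9.43, 8.95, 8.92, 9.41 and 9.56 to 8.72, 8.50, 8.57, 8.94 and 8.77. It was lower in each pig with a small overlap, and it fell by 0.56 ± 0.12 (adjusted p = 0.00344). None of the 4 rises passed without pig 2 (adjusted p = 0.1, 0.193, 0.201 and 0.18, in the order given), 1 passed without pig 1, and 2 passed without pig 3, 4 or 5.

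Of all 6765 genes 675 passed in limma, 4.39% higher and 5.59% lower. No transcript of the respiratory chain and ATP synthase did, of 59 measured, and none of the 24 of pyruvate dehydrogenase and the tricarboxylic acid cycle. None of these genes had an unadjusted p under 0.05 either, and the counts stayed at 0 when any 1 pig was left out. Changes of the respiratory chain ran from -0.20 to 0.08 with a median of -0.03, and those of the cycle from -0.20 to 0.04 with a median of -0.09. NDUFS1, a core subunit of complex I, read 11.59, 11.45, 11.92, 11.43 and 11.64 and then 10.89 to 11.88, lower in 5 of 5 pigs and most in pig 2, with a change of -0.19 ± 0.14 (adjusted p = 0.472). PDHB, of pyruvate dehydrogenase, was at -0.20 ± 0.12 (adjusted p = 0.347). Pig 2 had the lowest median in both lists, -0.17 and -0.22. PDK4, the kinase that shuts off pyruvate dehydrogenase, was higher at the end in pigs 1 to 4 and lower in pig 5, from 12.12 to 10.82, at 0.44 ± 0.37 overall (adjusted p = 0.557).

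Of 22 sarcomere and Z-disc genes 3 rose (13.6%, against 4.39% of all genes) and 1 fell (4.55%, against 5.59%). MYH7, the slow myosin heavy chain, read 14.98 to 15.02 in the 10 arrays, near the top of the scale, where the highest value on any array was 15.2. Its change was 0.00 with an interval from -0.10 to 0.11 (adjusted p = 0.976). ATP2A2, the calcium pump SERCA2a, was at -0.05 ± 0.09 (adjusted p = 0.802), but it had 4 probe sets with changes up to 0.37, of which 1 passed. PLN, phospholamban, which restrains that pump, stood at -0.30 ± 0.14 (adjusted p = 0.211), lower in 5 of 5 pigs and most in pig 2. Of 25 ion channel, calcium and gap junction genes KCNJ8, a subunit of an ATP-sensitive potassium channel also used as a pericyte marker, was the 1 that passed. That was 4% of the list, against 5.59% of all genes lower. KCNJ8 went from 9.78, 10.05, 9.77, 9.71 and 9.56 to 9.30, 9.53, 9.28, 9.30 and 9.18, without overlap, and fell by 0.45 ± 0.08 (adjusted p = 0.000545). The sarcomere and Z-disc genes that passed were the Z-disc protein PDLIM3 (1.06 ± 0.21), the anchoring protein NRAP (0.69 ± 0.18) and FHL1, which rose, and FHL2, which fell. NRAP did not pass without pig 1 (0.0929), pig 2 (0.0926) or pig 3 (0.0607). GABARAPL1, of autophagosome formation, was the 1 call among 25 protein breakdown genes (4%, against 4.39% of all genes higher) and rose by 0.48 ± 0.08.

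Among genes with a symbol that moved alike in all 5 pigs, the 14 deepest falls were less steep than the 14 largest rises. SEPT8, a septin of the cytoskeleton, came out with the lowest adjusted p of any probe set. It read 8.68, 8.84, 8.53, 9.04 and 9.0 at baseline and 7.66, 7.84, 7.58, 7.96 and 8.08 at the last biopsy. The groups were apart and each pig kept nearly the same distance, with a fall of 0.99 ± 0.08, 1.99-fold (adjusted p = 9.80e-08). MAP10, a microtubule-associated protein, went from 6.36, 6.43, 6.46, 6.33 and 6.13 to 5.04, 4.83, 5.17, 5.03 and 5.51 and was 2.34-fold lower (-1.23 ± 0.13, adjusted p = 6.87e-06). Its other probe set stood at 0.07 and did not pass. TNFSF10, the death ligand TRAIL, went from 6.84, 7.52, 7.26, 6.90 and 6.42 to 5.87, 5.43, 6.29, 5.36 and 5.94, apart by a small margin, and was 2.31-fold lower (-1.21 ± 0.25).

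OGT, the enzyme that attaches N-acetylglucosamine to nuclear and cytosolic proteins, narrowed as it fell. Its baseline values were 10.41, 10.55, 10.66, 10.55 and 10.29 and its last values 9.64, 9.69, 9.65, 9.61 and 9.59, a fall of 0.86 ± 0.11 (adjusted p = 3.26e-05), and 3 of its 4 probe sets passed. The homeobox factor MEIS1 fell by 0.95 ± 0.18, the transcription factor STOX1 by 1.18 ± 0.17 and the actin and phosphatase regulator PHACTR3 by 1.12 ± 0.20. The centrosomal CEP85 (-1.10 ± 0.23), the fucose salvage enzyme FPGT (-1.07 ± 0.17), the ubiquitin peptidase ZUFSP (-1.02 ± 0.16), the nucleosome assembly protein NAP1L3 (-0.91 ± 0.18), the sumoylation enhancer RWDD3 (-0.86 ± 0.16) and FAM198B (-1.10 ± 0.17) made up the rest with CIRBP. FAM198B had 4 probe sets, of which 3 passed and 1 stood at 0.08. Of these 14 genes 12 had groups that did not overlap, CEP85 and PHACTR3 being the exceptions, against 3.55% of all genes. All 14 still passed with any 1 pig left out. They were picked as the deepest falls that passed in all 5 pigs, so neither count is separate support for them. TNFSF10 missed the threshold with pig as a random block (adjusted p = 0.0749) and without the pig block (0.288), and MEIS1 without the block (0.0545).

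RNA-binding proteins that respond to temperature moved both ways. CIRBP and RBM3 are both induced by mild cooling in cultured cells. CIRBP read 8.64, 9.01, 8.93, 8.77 and 8.19 at baseline and 7.64, 7.81, 7.44, 7.45 and 7.55 at the end, without overlap and with the smallest step in pig 5. It was 2.19-fold lower (-1.13 ± 0.15, adjusted p = 5.01e-05). RBM3 went the other way, from 10.62, 10.42, 10.61, 10.40 and 10.52 to 11.22, 11.20, 11.23, 11.03 and 11.15. The groups were apart and the 5 steps nearly equal, a rise of 0.65 ± 0.09 (1.57-fold, adjusted p = 6.46e-05). Of 19 RNA-binding genes 4 rose (21.1%, against 4.39% of all genes) and 3 fell (15.8%, against 5.59%). Among them were the splicing factors SRSF5 (0.42 ± 0.07) and SRSF7 (0.46 ± 0.13) upward and RBM12B (-0.78 ± 0.19) downward. SRSF7 failed without pig 1 (0.121) or pig 2 (0.217), and RBM12B, whose other probe set stood at 0.06, without pig 2 (0.126) or pig 3 (0.0642). Body temperature is not given in the labels used here.

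RBM3 was also the 1 probe set of 23999 (0.00417%) whose whole-course change passed the limma test of a difference between the arms. Before adjustment, 2922 probe sets were under 0.05 in that test. For the whole course 7815 probe sets passed in the shunt arm, against 2110 in the control arm. The single call therefore does not show that the arms changed alike in other genes. In the shunt pigs RBM3 rose by 1.45 ± 0.08 (n = 6 pigs). The control change was smaller by 0.80 ± 0.12, with a difference of -0.80 and an adjusted p of 0.0200. The steps of the 6 shunt pigs were 1.76, 1.70, 1.54, 1.07, 1.12 and 1.54, each larger than the largest control step of 0.79. That held for shunt pigs 1 to 4 and for shunt pigs 5 and 6, whose arrays were the 2 sets described above. The baselines differed too: 9.70 to 10.39 in the shunt pigs and 10.40 to 10.62 in the control pigs. At the last biopsy the shunt pigs read 11.01 to 11.74 and overlapped the control range of 11.03 to 11.23. Arm and array set cannot be told apart here, and the difference did not pass without control pig 1 (0.131), 4 (0.140) or 5 (0.146), or without the pig block (0.315). CIRBP fell by 1.38 in the shunt arm, and its difference between arms did not pass (adjusted p = 0.69).

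**Figure D4:**
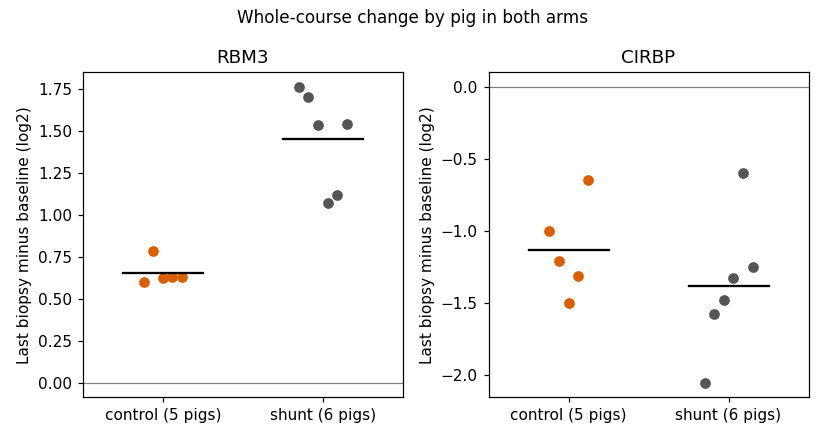
Change from baseline to the last biopsy (log2, y axis) of RBM3 (left) and CIRBP (right) in each of 5 control pigs (orange) and 6 shunt pigs (grey); horizontal bars are means. The RBM3 steps of the control pigs lie between 0.60 and 0.79, below all shunt pigs, and the CIRBP steps of the arms overlap.

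S100A9, an abundant granulocyte protein, was the 1 of 12 neutrophil and monocyte markers that passed (8.33%, against 4.39% of all genes higher). It read 4.15, 4.55, 5.54, 4.85 and 4.13 at baseline and 5.26, 6.69, 6.61, 5.94 and 5.66 at the end, higher in each pig with some overlap, since pig 3 began high. The rise was 2.61-fold (1.39 ± 0.43, adjusted p = 0.0453) and did not pass without any 1 pig (0.0891 to 0.221). The mean level of these 12 markers was 5.66 to 5.88 at baseline and 5.85 to 6.08 at the end, and the part of such cells in the cytokine and adhesion values was not tested. CD163, the haemoglobin scavenger receptor of resident macrophages, went from 8.81, 8.57, 8.24, 9.13 and 8.80 to 9.16, 9.59, 9.27, 9.49 and 9.42. It rose by 0.68 ± 0.15 with its groups narrowly apart, 1 call among 8 macrophage markers (12.5%), and missed the threshold without pig 2 (0.0563).

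Lymphocyte markers fell in 3 of 12 cases (25%, against 5.59% of all genes) and rose in none. They were CD8A (-0.67 ± 0.16, lower in 4 of 5 pigs), the T cell receptor subunit CD3G (-0.39 ± 0.10) and the natural killer receptor KLRK1 (-0.42 ± 0.12), all with low signals and overlapping groups, and none passed without pig 2 (0.101, 0.091 and 0.172). CD8A was also lost without pig 3 (0.0538), CD3G without pig 5 (0.0618) and KLRK1 without pig 1, 3 or 4 (0.0733, 0.129 and 0.0873). The other 9 markers did not pass. Among them CD3D was at 0.05 ± 0.11, CD4 at 0.03 ± 0.10 and GNLY at -0.44 ± 0.16. The median of the list was below 0 in 5 of 5 pigs. Of 3 red cell markers none passed, with 2 under an unadjusted p of 0.05, at a median of -0.85 that ran by pig from -2.05 to 0.07: the haem synthesis enzyme ALAS2 went from 8.14, 9.07, 9.39, 9.04 and 7.21 to 7.99, 7.28, 7.28, 8.12 and 7.01 (adjusted p = 0.0774). Their mean level was 7.12 to 8.66 at baseline and 6.87 to 7.64 at the end. Of 13 endothelial markers TEK fell (7.69%, against 5.59% of all genes) and none rose. CLDN5, a tight junction protein, was at 0.73 ± 0.25 (adjusted p = 0.0678). Of 9 smooth muscle and pericyte markers CNN1, calponin, rose (0.88 ± 0.18) and KCNJ8 fell. Each was 11.1% of the list, against 4.39% of all genes higher and 5.59% lower. No marker of platelets (5), fibroblasts (11), adipocytes (6), mesothelium (4) or ventricular cardiomyocytes (15) passed in limma, and 1 each of the fibroblast, adipocyte and ventricular lists had an unadjusted p under 0.05. Without pig 5, 1 red cell and 1 fibroblast marker passed.

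Where in the 180 min the changes arose can be read from the biopsy at 120 min. From baseline to 120 min 1616 probe sets passed in the control pigs (6.73%), and from 120 min to the last biopsy none did in limma, with a smallest adjusted p of 0.871 and 737 probe sets under 0.05 before adjustment. These periods share arrays with the whole course, so their values are only set side by side. PTX3 changed by 4.02 in the first period and by 0.49 in the later one, CCL2 by 3.39 and -0.22, CYR61 by 3.03 and 0.05, MYC by 2.18 and 0.01, and SEPT8 by -0.79 and -0.20. Most of the step of these 5 genes thus lay before 120 min. Without pig 1, 2 or 3 the first period had 662, 719 or 924 calls.

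Of the genes named here for the largest later step in the direction of their whole-course change, none passed for the later period. S100A9 changed by 0.13 and then by 1.25, upward in 5 of 5 pigs in the later period (unadjusted p = 0.00786, limma adjusted p = 1.00). DNAJB9 changed by 0.21 and 0.47, DEPDC7 by 0.35 and 0.46, and APOD, a lipid carrier protein, by 0.19 and 0.44, while NPPB had the larger step first (1.64 and 1.02). DEPDC7 rose by 0.81 ± 0.23 over the whole course and APOD by 0.63 ± 0.17. DEPDC7 was lost without pig 1, 3 or 5 (0.0918, 0.134 and 0.0613) and APOD without pig 2, 3 or 4 (0.0524, 0.0745 and 0.134). Among falls, RRAD, a small GTPase that dampens calcium channels, went from 11.67, 11.48, 11.32, 11.35 and 11.90 through 11.46, 11.38, 10.23, 11.00 and 10.07 to 9.52, 11.58, 10.07, 10.05 and 10.15. Pig 2 did not fall at all. The whole-course change was -1.27 ± 0.31 (adjusted p = 0.0112), with steps of -0.71 and -0.56, and did not pass without pig 1 (0.0611). MEIS1 (-0.47 and -0.49), PANK1, of coenzyme A synthesis (-0.40 and -0.41), and PHACTR3 (-0.63 and -0.48) had steps of similar size.

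A further 6 genes were named for the largest later step against their whole-course rise, and none of these later steps passed in limma (adjusted p = 1.00, with unadjusted p-values from 0.0346 for ID1 to 0.436 for PHLDA2). ANGPTL4 went from 7.43, 7.04, 6.83, 7.21 and 7.43 to 10.05, 10.74, 8.06, 9.44 and 8.65 at 120 min and to 8.23, 10.25, 8.41, 8.44 and 7.78 at the end. It was lower at the end than at 120 min in 4 of 5 pigs, at steps of 2.20 and -0.76. ATF3 stepped by 3.53 and -0.68, the protease inhibitor SERPINB2 by 1.79 and -0.50, PLIN2 by 1.84 and -0.49, the differentiation inhibitor ID1 by 1.10 and -0.38 and PHLDA2 by 2.29 and -0.34. Over the whole course SERPINB2 rose by 1.29 ± 0.35 in 4 of 5 pigs, ID1 by 0.72 ± 0.17 and PHLDA2 by 1.94 ± 0.44. SERPINB2 was lost without pig 1, 2 or 3 (0.125, 0.126 and 0.0882), PHLDA2 without pig 2 (0.0722), PLIN2 without pig 1, 2, 3 or 4 (0.0654 to 0.193), and ID1 without pig 1 (0.0746) or pig 2 (0.05).

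**Figure D5:**
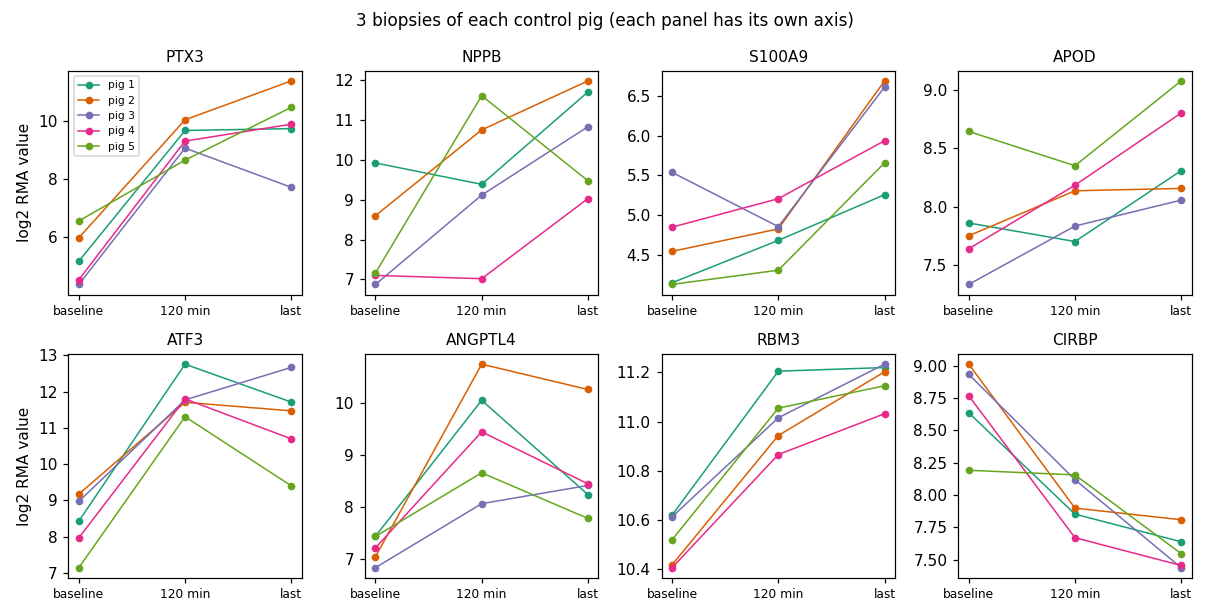
Log2 RMA value (y axis, each panel with its own range) at baseline, after 120 min and at the last biopsy, joined for each of the 5 control pigs, for 8 genes. PTX3 makes most of its step by 120 min, S100A9 after it, ANGPTL4 is lower at the end than at 120 min in 4 of 5 pigs, and RBM3 rises while CIRBP falls in 5 of 5 pigs.

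The pigs resembled one another in the whole-course change, with correlations over all probe sets of 0.417 to 0.574 for the 10 pairs of pigs (median 0.533). Pig 2 had 504 probe sets at least 2-fold higher and 206 lower, and pig 5 had 124 and 34. Among the genes called as higher the median change was 0.804 in pig 2 and 0.474 in pig 5, and among those called as lower -0.511 and -0.364. Pig 5 had the smallest step of the 5 for 7 of the 14 largest rises and for 9 of the 14 deepest falls.

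Where a gene had several probe sets, the one with the highest mean signal stood for it, and the others did not always pass. Both probe sets of PTX3 passed, at 1.96 and 4.51, as did both of SEPT8, CEP85, FKBP5 and CD163. A single probe set passed out of 5 for TLR4 (changes from 0.03 to 0.65) and out of 2 for IL1R1 (0.02 and 1.29), KLF9 (0.18 and 0.50), MEIS1 (-0.13 and -0.95) and FPGT (-0.30 and -1.07). For PANK1, of 3 probe sets with changes from -0.81 to 0.03, 1 passed. With pig as a random block, the calls of BAG3 (adjusted p = 0.0565), GPX3 (0.0679), HSPB3 (0.0528), KLRK1 (0.092), PLIN2 (0.0539), S100A9 (0.0947), TEK (0.0848) and UTP15 (0.129) were lost as well.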

How the data were processed

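Total RNA of each biopsy was hybridised to 1 array. The values used are the authors' deposited log2 signals, made with RMA per the submitters' processing notes. Its version and the set of arrays it was run on are not stated in the labels used here. Of 24123 probe sets, 124 controls were left out. Symbols came from the platform annotation (10069 probe sets with 1 symbol, 198 with several, 13732 with none), of which 9961 matched RefSeq by gene identifier, and the brightest probe set on average over the 33 arrays stood for each of 6765 genes.

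All 33 arrays were fitted in limma 3.58.1 (R 4.3.3, statmod 1.5.0) with pig as a block and a coefficient for each arm and biopsy. Tests were two-sided, with Benjamini-Hochberg adjustment over 23999 probe sets and a threshold of 0.05; fits were tested on simulated data. The labels tie biopsies to pigs, and deviations from the group means correlated at 0.355 to 0.601 within the 5 pigs. The median over 20 pairs of different pigs was -0.134. Centring on the group means makes these pairs offset the same-pig pairs, so their median is not an independent reference. Intervals are 95%.

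Members and gene lists were chosen with earlier results of these data known. Named were the 14 largest rises and falls that passed and agreed in direction in all 5 pigs, up to 5 genes per list and 3 per marker list by smallest p, up to 6 in each group by later change, the gene that differed between arms, and a panel of 20 genes. Alternatives were centring, quantile normalisation, other blocks, samples, variance settings and filters, weights, a minimum fold, other gene summaries, and leaving out each control pig. The first and later periods, list counts and RBM3 were added to these alternatives after the data were seen. Promoter sequences were not used here.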

Additional observations from a re-analysis of the deposited data

Results flagged for a closer look

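In 14 of the 161 named genes 1 pig stood apart from the other 4 in its change from baseline to the last biopsy, by a gap above Dixon's critical value of 0.71 of the range; chance alone does so in about 1 in 20 groups. Pig 2 was the pig apart in 8 of them. It was above the others for TIMP1 (2.79 against 0.94 to 1.41), EIF4A1 (1.83 against 0.84 to 1.11), CLDN5 (1.78 against 0.28 to 0.53), BHLHE40 (1.67 against 1.07 to 1.19) and RBM3 (0.79 against 0.60 to 0.63). It was below them for PLN (-0.75 against -0.26 to -0.14), GOT1 (-0.28 against -0.14 to -0.09) and CKMT2 (-0.13 against 0.10 to 0.17).

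Pig 4 was lowest for ACSL3 (-0.18 against 0.47 to 0.65), ADM (0.46 against 0.88 to 1.04) and UTP15 (0.039 against 0.44 to 0.58). Pig 3 was lowest for MT-2B (0.64 against 2.87 to 3.71), pig 1 for LIPE (-0.82 against -0.24 to -0.08), and pig 5 was highest for THY1 (0.0796 against -0.32 to -0.22).

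The whole-course change of RBM3 differed between the arms in the test of the difference itself, by -0.80 on the log2 scale, control minus shunt. It was higher in 5 of 5 control and 6 of 6 shunt pigs, and arm and array set cannot be told apart.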

How the results depend on the processing

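No named gene that passed, in the fit reported above or in the alternative, reversed its direction under any alternative that was run. Changes of direction in genes that passed in neither fit were not counted. The count of 2110 probe sets (840 higher, 1270 lower) stayed within 1.5 times with arrays centred (1966), quantile normalisation (2068), pig as a random block (1835), trend and robust variances (2043), the lowest 30% left out (2171), the control arrays alone (2336) and the 10 compared arrays alone (2887). Without the replicate block for pig it was 826 (377 higher, 449 lower), with 507 in the first period and 0 between arms. With array weights it was 3440 (1307 and 2133), with 189 between arms. A required change of 1.5-fold left 36 (32 and 4) and turned the balance of calls, 88.9% higher against 39.8%, with 33 in the first period and 0 between arms. With 1 probe set per gene 730 passed (312 and 418), 504 in the first period and 3 between arms; with the mean of a gene's probe sets 621 (301 and 320), 433 and 3. These last 2 settings test fewer features; the cause of the other moves was not tested. Leaving out 1 control pig gave 849 to 1635 probe sets (365 to 676 higher, 484 to 959 lower), 662 to 1779 in the first period and 0 to 5 between arms. The later period had 0 in every alternative run. Of 103 named genes that passed, 57 kept their call whichever pig was left out, 46 lost it at least once, and 13 lost it under no alternative. The adjusted p of RBM3 between arms was 0.315 without the block and 1 with the required 1.5-fold change. The number of arrays limits the precision.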
